A study of Rattus norvegicus with 56 samples.

Results

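Amniotic fluid of rat fetuses that developed a ventricular septal defect (VSD) after maternal dimethadione (DMO) was compared with amniotic fluid of fetuses whose septum stayed intact after the same exposure. The samples were chosen by their labels, and 14 of the 56 samples of the series entered the comparison, 7 in the VSD group and 7 in the non-VSD group. Fetuses and dams were Sprague-Dawley rats. Dams of both groups received DMO, the teratogenic metabolite of the anticonvulsant trimethadione, by gavage at 5 ml/kg of a 60 mg/ml solution every 12 h for 6 doses from embryonic day 8, and fluid was drawn on embryonic day 19. Because both groups carried the exposure, the contrast asks which microRNAs differed with the heart phenotype among exposed fetuses. Dams of the negative control (NC) group received distilled water, and their 7 amniotic fluid libraries are given here only for the level they set. Fetuses with visible malformations other than the VSD were left out by the study, and the litter of each fetus is not given in the sources used here. The fluid was spun and the supernatant kept, so what was read was RNA released into the fluid by any tissue that sheds into it, and neither the tissue of origin nor the number of shedding cells can be told apart from the amount released by each cell.

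MicroRNAs are short RNAs cut from a hairpin, which yields a 5p and a 3p arm. Bases 2 to 8 of the mature strand form the seed, which pairs with target messages, so microRNAs with a common seed have largely common predicted targets. Late in gestation amniotic fluid is fed by fetal urine and lung liquid and cleared largely by fetal swallowing, and it is in contact with the amnion and with the fetal skin, gut and airway linings. MicroRNAs in it are protected from degradation by vesicles and proteins.

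Differential expression was tested on the deposited counts with edgeR's quasi-likelihood test. A DE-microRNA was defined by an unadjusted p below 0.05 together with a change of 2-fold or more in either direction. Levels are in CPM, the count of a microRNA relative to the total of its library, scaled by the trimmed mean of M-values across the 14 libraries. Of 493 microRNAs with a count, 243 had enough counts to test, and 9 of them, 3.7%, were DE-microRNAs. MiR-30e-3p, miR-122-5p, miR-196a-5p and miR-672-5p were higher in the VSD group, 1.65% of those tested, and miR-9a-3p, miR-369-3p, miR-540-3p, miR-3557-5p and miR-351-3p were lower, 2.06%. None of the 243 passed an adjusted p below 0.05 in edgeR, where the lowest Benjamini-Hochberg adjusted p was 0.156. At an unadjusted p below 0.05 there were 26, or 10.7%, and a second count test, DESeq2, called 4 at an adjusted p below 0.05.

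RefSeq sequences on the GRCr8 assembly were found for 224 of the 243 tested microRNAs and for 41 of the 44 named in this account. Among the DE-microRNAs and those closest to them by p, miR-30e-3p and miR-423-3p had no entry and are only named. The mature sequences of the DE-microRNAs are shown first, since each call refers to 1 arm of a hairpin. Capitals mark the seed.
miR-196a-5p: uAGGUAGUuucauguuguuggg
miR-672-5p: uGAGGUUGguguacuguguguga
miR-122-5p: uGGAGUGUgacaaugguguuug
miR-369-3p: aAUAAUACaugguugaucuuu
miR-540-3p: aGGUCAGAggucgauccugggc
miR-9a-3p: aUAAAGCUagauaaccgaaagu
miR-351-3p: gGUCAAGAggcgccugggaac
miR-3557-5p: gCCUUCUGacuccaaguccagu
The 8 printed DE-microRNAs have 8 different seeds. MiR-196a-5p lies on chromosome 7 (chr7:135988900-135988921, plus strand), in a Hox gene cluster. MiR-369-3p (chr6:134579507-134579527, plus strand) and miR-540-3p (chr6:134321475-134321496, plus strand) lie in the imprinted Dlk1-Dio3 domain. MiR-672-5p (chrX:73192351-73192373) and miR-351-3p (chrX:137725121-137725141) are on the minus strand of the X chromosome, and miR-122-5p is at chr18:61028831-61028852 on the plus strand. MiR-9a-3p has the same sequence at 3 loci, so its counts cannot be assigned to one of them.

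Other microRNAs described below form families by sequence, and 3 sets are shown for that reason. The miR-181 sequences have a common seed, as do the muscle microRNAs. MiR-3553 and miR-183-5p lie at the same place on chromosome 4 on opposite strands (chr4:59756105-59756127, plus, and chr4:59756106-59756127, minus), so that 22 bases of one are the exact complement of the other.
miR-181a-5p: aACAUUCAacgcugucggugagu
miR-181b-5p: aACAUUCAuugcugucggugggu
miR-1-3p: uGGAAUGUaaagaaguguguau
miR-1b: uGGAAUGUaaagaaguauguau
miR-206-3p: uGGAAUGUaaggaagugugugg
miR-183-5p: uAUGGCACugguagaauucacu
miR-3553: cAGUGAAUucuaccagugccaua
miR-182: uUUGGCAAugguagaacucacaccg
let-7c-5p: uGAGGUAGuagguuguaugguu

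The libraries held between 78188 and 331787 counts, with a median of 155171 in the VSD group and 159557 in the non-VSD group. Between 227 and 351 microRNAs had a count in a library. Neither depth nor the number of microRNAs with a count separated the groups (exact permutation test, two-sided, p = 0.98 and 0.7). At these depths a level of 3 counts corresponds to 9.04 to 38.4 CPM, so microRNAs near 100 CPM rest on few reads. VSD replicate 2 and non-VSD replicate 7 had the fewest microRNAs, 227 and 234, and stood apart on the first principal component. With both left out, 14 DE-microRNAs were called, and 7 of the 9 were among them. Leaving out VSD replicate 2 alone gave 16, and the other single libraries gave 7 to 15. Over all tested microRNAs the median log2 fold change, VSD over non-VSD, was -0.13, and 139 of 243 (57.2%) were lower in the VSD group. Nothing states that the libraries of a group came from separate dams, so p-values measure the spread between these samples.

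**Figure D1:**
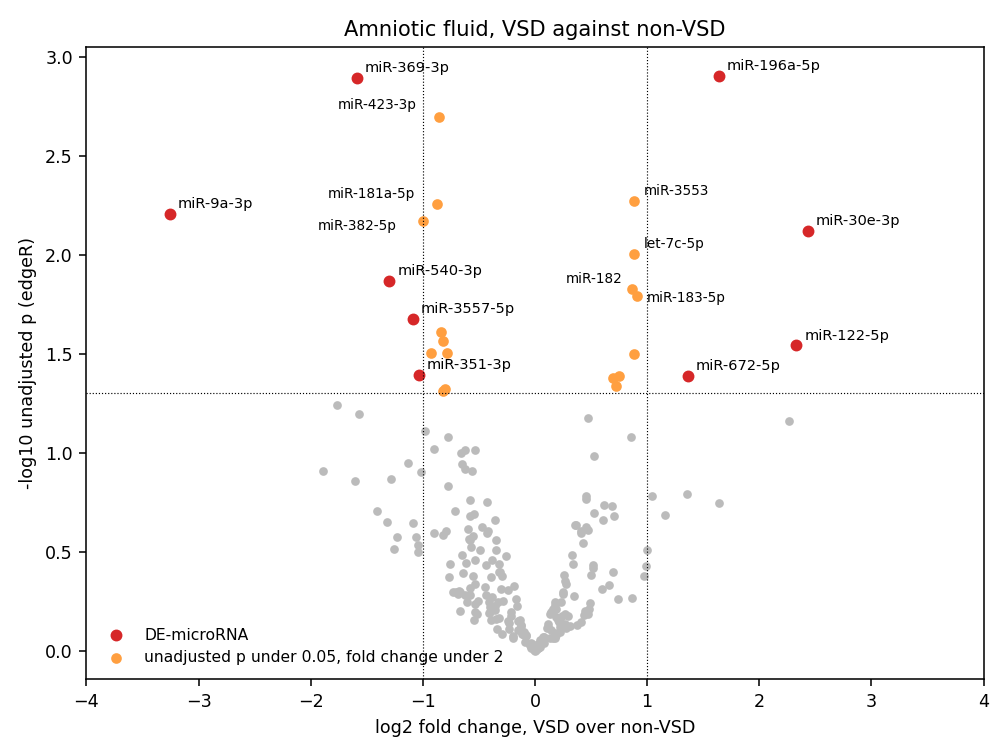
Log2 fold change of each of the 243 tested microRNAs in amniotic fluid, VSD over non-VSD (horizontal axis), against the unadjusted edgeR p on a -log10 scale (vertical axis), with dotted lines at a 2-fold change and at the 0.05 level. Red points are the 9 DE-microRNAs, 4 on the right and 5 on the left, and orange points are the other 17 microRNAs past that level.

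MiR-196a-5p, encoded among the Hox genes that it is known to repress, was the DE-microRNA with the lowest p on the higher side. It ranged from 896 to 2054 CPM with a median of 1202 in the VSD group, and from 156 to 1004 CPM with a median of 432 in the non-VSD group. Non-VSD replicate 1 was the only non-VSD library inside the VSD range, and all 7 VSD libraries lay above the non-VSD median. The means were 1436 ± 514 (SD, n = 7) and 459 ± 309 CPM, and the log2 fold change was 1.64 (SE 0.43, adjusted p = 0.156 in edgeR). An exact two-sided permutation test of mean log2 CPM over all groupings of the 14 samples gave p = 0.00175. Exact permutation p-values of microRNAs, here and below, are unadjusted. Many of these microRNAs were picked by their edgeR p in the same libraries, so such values are not an independent check. The call held in each of the 14 fits that left out 1 library.
Its seed is carried by 2 other tested microRNAs, miR-196b-5p and miR-196c-5p. Both had positive fold changes that did not pass, 0.61 (SE 0.48) and 0.68 (SE 0.50) on the log2 scale, and both differ from miR-196a-5p by few bases, so reads could be split between them.

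MiR-30e-3p, the passenger arm of a miR-30 hairpin hosted by the gene Nfyc, had the largest positive fold change. It ranged from 127 to 679 CPM with a median of 364 in the VSD group, and from 0 to 171 CPM with a median of 61.3 in the non-VSD group. Non-VSD replicates 4 and 7 had no count, and only non-VSD replicate 3 exceeded the lowest VSD library. The totals behind this were 437 counts in the VSD group and 87 in the non-VSD group. On the log2 scale the change was 2.44 (SE 0.81, adjusted p = 0.23 in edgeR), with an exact permutation p of 0.00117, and the call held in each of the 14 leave-one-out fits.
The other arm did not follow. MiR-30e-5p had a log2 fold change of 0.23 (SE 0.65), and the log2 ratio of the 3p to the 5p arm had a median of -0.89 in VSD libraries and -2.23 in non-VSD libraries, with all 7 VSD libraries above the non-VSD median. The 3p arm of another miR-30 hairpin, miR-30a-3p, was also higher, from 491 to 671 CPM in the VSD group against 159 to 556 CPM in the non-VSD group. Its log2 fold change was 0.88 (SE 0.38, adjusted p = 0.405 in edgeR) and its exact permutation p was 0.00291.

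MiR-672-5p, an X-linked microRNA, also had all 7 VSD libraries above the non-VSD median. It ranged from 323 to 766 CPM (median 497) in the VSD group and from 7.78 to 370 CPM (median 182) in the non-VSD group. Only non-VSD replicate 4 lay inside the VSD range, and non-VSD replicates 2 and 3 had 9 and 1 counts. In edgeR its log2 fold change was 1.37 (SE 0.62, adjusted p = 0.442), and the exact permutation p was 0.00233. The call held in 9 of 14 leave-one-out fits.

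MiR-122-5p, the dominant microRNA of hepatocytes, was high in 2 VSD libraries. VSD replicate 4 had 41800 CPM and VSD replicate 3 had 8650 CPM, while the other VSD libraries lay between 583 and 894 CPM. The non-VSD libraries ranged from 135 to 3219 CPM with a median of 987, above the VSD median of 853. A log2 fold change of 2.33 (SE 0.98, adjusted p = 0.405 in edgeR) became 0.50 without VSD replicate 4, and the exact permutation p was 0.496.

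MiR-369-3p, from the distal end of the Dlk1-Dio3 microRNA cluster, had the lowest p of the microRNAs lower in the VSD group. It ranged from 369 to 1342 CPM (median 605) in the VSD group and from 893 to 4971 CPM (median 1395) in the non-VSD group. All 7 VSD libraries lay below the non-VSD median, and VSD replicate 4 was the only one above 893 CPM. The log2 fold change was -1.59 (SE 0.42, adjusted p = 0.156 in edgeR) and the exact permutation p was 0.0035. The call held in each of the 14 leave-one-out fits, from -1.76 without VSD replicate 4 to -1.19 without non-VSD replicate 2.
The 5p arm of the hairpin, miR-369-5p, had a log2 fold change of 0.068 (SE 0.35). The log2 ratio of 3p to 5p was between -1.10 and -0.34 in VSD libraries while the non-VSD libraries began at -0.44 and had a median of 0.14, with 7 of 7 VSD libraries below the non-VSD median.

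MiR-540-3p, from the proximal part of the same domain, ranged from 142 to 1464 CPM (median 717) in the VSD group and from 649 to 4145 CPM (median 1736) in the non-VSD group. The ranges overlapped widely, although no VSD library reached the non-VSD median. Its log2 fold change was -1.30 (SE 0.47, adjusted p = 0.326 in edgeR), and it was -0.87 without non-VSD replicate 6, the highest library.
MiR-351-3p, from an X-linked cluster with miR-503 and miR-322, ranged from 170 to 992 CPM in the VSD group and from 404 to 2079 CPM in the non-VSD group. Its log2 fold change of -1.04 (SE 0.47) met the threshold in 5 of 14 leave-one-out fits. The call was also lost with DESeq2 (-0.97), without a count filter (-0.99), with at least 10 counts in every library (-0.97), with all 3 groups in one fit (-0.97), with the replicate block (-1.02) and without both libraries with the fewest microRNAs (-0.94). Its 5p arm was at 0.18 (SE 0.32). MiR-503-3p of the same cluster had -0.79 (SE 0.34, adjusted p = 0.405 in edgeR). The other arm, miR-503-5p, had 0.43 (SE 0.39), and miR-322-5p had -0.13 (SE 0.38).

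MiR-3557-5p ranged from 404 to 4047 CPM (median 1490) in the VSD group and from 1537 to 6869 CPM (median 3250) in the non-VSD group, and 6 of 7 VSD libraries lay below the non-VSD median. Its log2 fold change was -1.09 (SE 0.43), and the call held in 8 of 14 leave-one-out fits. Its position on chromosome 18 (chr18:57128924-57128945, plus strand) overlaps miR-378a-3p on the other strand over 21 complementary bases. MiR-378a-3p had a log2 fold change of 0.053 (SE 0.42), with means of 3715 CPM in the VSD group and 3579 CPM in the non-VSD group. Whether strand was used in the authors' counting is not given in the sources used here.

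MiR-9a-3p, the star arm of a microRNA of neural progenitors, had a large fold change that rested on 1 library. Non-VSD replicate 2 had 4427 CPM and non-VSD replicate 3 had 903 CPM, while the other non-VSD libraries lay between 36.8 and 187 CPM and the VSD libraries between 0 and 147 CPM. A log2 fold change of -3.25 (SE 1.05) was -1.37 without non-VSD replicate 2, where the call was lost, and the exact permutation p was 0.193.

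**Figure D2:**
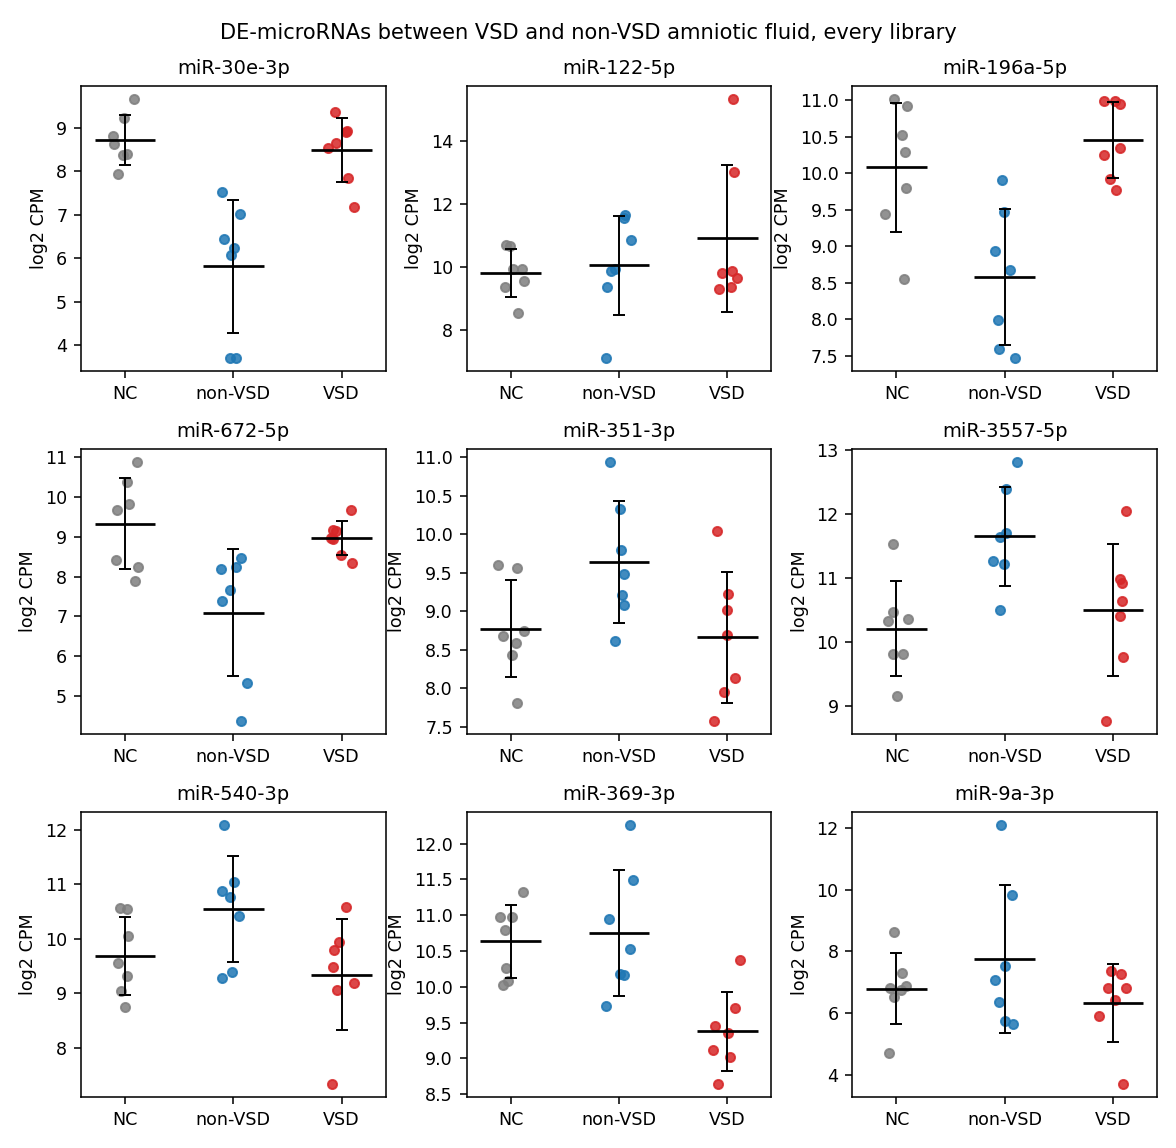
Levels of the 9 DE-microRNAs in every amniotic fluid library, by group (7 points in each of NC, non-VSD and VSD), in log2 CPM scaled over all 21 libraries with a prior count of 2. Horizontal lines are means and bars are SD. For miR-196a-5p, miR-30e-3p and miR-672-5p the NC points lie beside the VSD points and the non-VSD points lie lower, for miR-369-3p the VSD points are the ones that stand lower, and for miR-122-5p and miR-9a-3p single libraries set the difference.

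The NC libraries, which took no part in the choice of these microRNAs, gave the unexposed level. All values of this comparison come from a joint scaling of the 21 amniotic fluid libraries. The NC mean log2 CPM lay nearer to the VSD mean for 7 of the 9 DE-microRNAs and for 18 of the 26 microRNAs at p below 0.05 (69.2%), against 138 of all 243 (56.8%). It did so for 10 of the 12 microRNAs that were higher in the VSD group and for 8 of the 14 that were lower. These are descriptions of position, with no test.
The median of miR-196a-5p was 1242 CPM in the NC group, 1281 CPM in the VSD group and 396 CPM in the non-VSD group. That of miR-30e-3p was 386, 388 and 61.9 CPM in the same order, and that of miR-672-5p was 805, 485 and 191 CPM. In each case it was the exposed fetuses with an intact septum that had the low level. MiR-3557-5p gave the mirror image, with medians of 1278 CPM in the NC group, 1587 CPM in the VSD group and 3199 CPM in the non-VSD group.
MiR-369-3p was different. Its medians were 1764 CPM in the NC group and 1462 CPM in the non-VSD group but 644 CPM in the VSD group, so that the VSD group was the one that stood apart. MiR-122-5p was the other DE-microRNA whose NC mean was nearer to the non-VSD mean. The medians of its 3 groups were 970, 892 and 972 CPM in the NC, VSD and non-VSD groups.

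MiR-423-3p, which did not reach a 2-fold change, was the only 1 of the 243 tested microRNAs (0.412%) whose groups did not overlap. It ranged from 1649 to 2810 CPM (median 1929) in the VSD group and from 2998 to 4921 CPM (median 3593) in the non-VSD group. Its log2 fold change was -0.85 (SE 0.24, adjusted p = 0.163 in edgeR), with an exact permutation p of 0.000583, the smallest this design allows for 2 fully separated groups. The NC median, in the joint scaling, was 1489 CPM, against 2011 CPM for VSD and 3288 CPM for non-VSD.

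The cluster of miR-183, miR-96 and miR-182, made by sensory and secretory epithelia, was represented by 3 tested mature microRNAs. MiR-182 ranged from 8996 to 22914 CPM (median 19058) in the VSD group and from 4619 to 14565 CPM (median 9386) in the non-VSD group, a log2 fold change of 0.86 (SE 0.32, adjusted p = 0.326 in edgeR). MiR-183-5p ranged from 9369 to 29763 CPM (median 20801) against 5029 to 17044 CPM (median 10992), a log2 fold change of 0.91 (SE 0.34, adjusted p = 0.326 in edgeR). For both, the highest non-VSD library lay above 3 of 7 VSD libraries. MiR-96-5p had 0.52 (SE 0.39) and did not pass.
MiR-3553, antisense to miR-183-5p, had a log2 fold change of 0.88 (SE 0.28, adjusted p = 0.23 in edgeR) and amounted to 10.9% to 24.3% of the miR-183-5p level in VSD libraries and 11.9% to 30.3% in non-VSD libraries. The values of the pair are therefore not independent measurements if reads of one were counted for the other. Without both libraries that stood apart, all 3 passed the 2-fold limit, with 1.08 for miR-182, 1.16 for miR-183-5p and 1.09 for miR-3553.

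Let-7c-5p, a member of a family that marks differentiated cells, ranged from 10216 to 33579 CPM (median 14988) in the VSD group and from 7364 to 13885 CPM (median 9228) in the non-VSD group. All 7 VSD libraries lay above the non-VSD median. The log2 fold change was 0.88 (SE 0.31, adjusted p = 0.267 in edgeR), and the exact permutation p was 0.00991. Of the 9 tested microRNAs with the let-7 seed, 8 had positive fold changes, beside 42.8% of all tested. Let-7c-5p was the only one of the 9 at p below 0.05. The values were 0.52 for let-7a-5p (SE 0.56), 0.36 for let-7b-5p (SE 0.29) and 0.12 for let-7i-5p (SE 0.37). The negative one was let-7d-5p, at -0.32 (SE 0.34). Let-7 members differ by 1 or a few bases, so counts may pass between them.

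MiR-181a-5p, known for its part in lymphocyte development and expressed in many tissues, was lower in the VSD group. It ranged from 2319 to 4404 CPM (median 3729) in the VSD group and from 3285 to 10290 CPM (median 5583) in the non-VSD group. Non-VSD replicate 6 was the only non-VSD library within the VSD range. The log2 fold change was -0.88 (SE 0.28, adjusted p = 0.23 in edgeR) and the exact permutation p was 0.00641. The 4 tested microRNAs of this seed all had negative values. MiR-181b-5p was at -0.82 (SE 0.39, adjusted p = 0.456 in edgeR), miR-181d-5p at -0.58 (SE 0.41) and miR-181c-5p at -0.77 (SE 0.93), the last on 61 counts in the VSD group and 116 in the non-VSD group.

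MiR-34a-5p, a transcriptional target of p53, had a log2 fold change of 0.72 (SE 0.34, adjusted p = 0.456 in edgeR), and miR-27b-3p had 0.70 (SE 0.32, adjusted p = 0.442 in edgeR). MiR-221-3p, found in endothelium and smooth muscle, was lower by -0.93 (SE 0.40, adjusted p = 0.405 in edgeR) and miR-223-3p of neutrophils and monocytes by -0.80 (SE 0.38, adjusted p = 0.456 in edgeR). MiR-25-3p had 0.47 (SE 0.24) and did not pass in edgeR, although all 7 VSD libraries lay above the non-VSD median and the exact permutation p was 0.00991.

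The imprinted Dlk1-Dio3 domain on chromosome 6, whose microRNAs are made from the maternal allele and are abundant in fetal tissue and placenta, was the list with the most tested members. Of 77 listed microRNAs with a count, 41 were tested. At p below 0.05, 5 were lower in the VSD group and 1 was higher, against 5.76% and 4.94% of all tested microRNAs. The lower ones were miR-369-3p, miR-540-3p, miR-382-5p, miR-341 and miR-409b, and the higher one was miR-411-5p, with 0.75 (SE 0.34). Regardless of p, 28 had negative and 13 had positive values, beside 57.2% and 42.8% of all tested, and the median was -0.39 beside -0.13.
MiR-382-5p was the most abundant of the 6. It ranged from 12752 to 22297 CPM (median 16304) in the VSD group and from 17330 to 69002 CPM (median 26252) in the non-VSD group. No VSD library reached the non-VSD median, and the level was 1.998-fold lower (adjusted p = 0.23 in edgeR, SE 0.33 on the log2 scale), just short of the limit. On the log2 scale the change was -0.66 without non-VSD replicate 6, the library with the highest level.
MiR-341 was at -0.84 (SE 0.34) and miR-409b at -0.82 (SE 0.34). MiR-409b lies antisense to miR-409a-3p, with 20 complementary bases, and miR-409a-3p had -0.57 (SE 0.53).
Along the chromosome, the 12 placed members of the proximal group, from miR-673-5p to miR-370-3p over 48.03 kb, had a median of -0.20 with 9 below 0. The 27 placed members of the distal group, from miR-379-5p to miR-369-3p over 36.05 kb, had a median of -0.55 with 17 below 0. Neighbours differed in sign: miR-411-5p at 238.09 kb from the first tested member was higher, and miR-329-3p and miR-329-5p, about 3 kb on, had -1.32 (SE 1.04) and -1.61 (SE 1.04) on few counts. Summed over the domain and scaled by library total, the VSD libraries held 62860 to 180587 CPM with a median of 111776, and the non-VSD libraries held 103268 to 303985 CPM with a median of 135952.

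**Figure D3:**
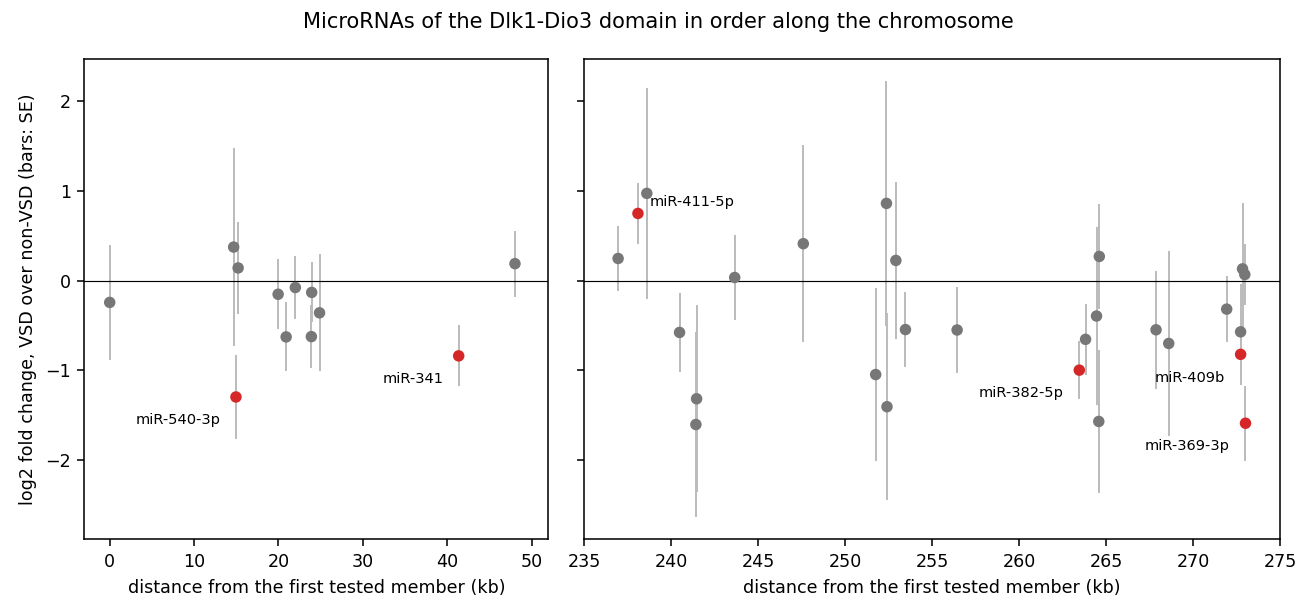
Log2 fold change in amniotic fluid, VSD over non-VSD, with SE bars (vertical axis), of the 39 tested Dlk1-Dio3 microRNAs with a RefSeq position, by distance in kb from the first tested member (horizontal axis, a different scale in each panel, with the stretch between the groups left out). Red points are the 6 microRNAs at p below 0.05: 5 lie below 0, and miR-411-5p lies above it.

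Muscle microRNAs varied over several orders of magnitude between libraries, and the 4 tested did not pass in edgeR. MiR-206-3p, a microRNA of skeletal muscle, ranged from 357 to 280545 CPM (median 19465) in the VSD group and from 117 to 27231 CPM (median 16743) in the non-VSD group. VSD replicates 1 and 4 had 159610 and 280545 CPM, while VSD replicates 2, 5 and 7 had 1167 CPM or less, below all non-VSD libraries but 1. The log2 fold change was 2.27 (SE 1.17, adjusted p = 0.561 in edgeR), and the exact permutation p was 0.816. It met the DE-microRNA threshold with DESeq2 (2.31), without a count filter (2.32), without both libraries with the fewest microRNAs (2.31) and without VSD replicate 2, 5 or 7. Leaving out 1 library gave 1.35 (without VSD replicate 4) to 2.55 (without VSD replicate 2).
MiR-1-3p, of heart and skeletal muscle, was at 0 to 5803 CPM (median 169) in the VSD group and at 0 to 857 CPM (median 331) in the non-VSD group, and its log2 fold change of 1.64 (SE 1.17) became -0.16 without VSD replicate 4. That of miR-1b, 0.70 (SE 0.81), became -0.13 without the same library. The 3 share a seed and most of their bases, so reads may be divided between them. Myosin-encoded miR-208b-3p, also tested, went the other way, at -1.26 (SE 1.19) on 77 counts in the VSD group and 206 in the non-VSD group. Myosin-encoded miR-208a-3p had 23 counts in the VSD group and 13 in the non-VSD group, and miR-499-5p had 45 and 58, too few to test. In all, 4 of 11 muscle microRNAs with a count were tested, with none at p below 0.05 and a median of 1.17.

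The study had called its amniotic fluid microRNAs in VSD against NC fluid and in non-VSD against NC fluid, which are different comparisons. It left the non-VSD calls out before predicting targets. Its non-VSD list already held miR-196a-5p, miR-30e-3p and miR-672-5p as lower than in NC fluid. The same list held miR-3557-5p, miR-9a-3p and miR-423-3p as higher. By qRT-PCR it also reported miR-15b-5p and miR-184 as changed, and miR-142-3p as changed in both exposed groups. Apart from miR-122-5p, the microRNAs that the text of the study names for amniotic fluid were not DE-microRNAs in this contrast. MiR-369-3p, which that text does not name, was on the study's list of microRNAs lower in VSD than in NC fluid. It was not on the non-VSD list. MiR-15b-5p had a log2 fold change of 0.44 (SE 0.96), miR-184 had 0.66 (SE 0.88), miR-142-3p had -0.53 (SE 0.93), miR-199a-5p had -1.28 (SE 0.82) and miR-665 had 0.14 (SE 0.52). None passed, and the SE of each exceeds 0.5. Leaving out 1 library gave 0.027 (without VSD replicate 4) to 1.87 (without non-VSD replicate 6) for miR-184, which met the DE-microRNA threshold at the upper end. For miR-142-3p the range was -1.32 (without VSD replicate 7) to -0.084 (without non-VSD replicate 1), for miR-15b-5p 0.071 (without VSD replicate 7) to 0.95 (without non-VSD replicate 3), and for miR-199a-5p -1.43 (without non-VSD replicate 7, where the threshold was met) to -0.99 (without VSD replicate 7). MiR-134-3p had 26 counts, all in VSD replicate 4, miR-1843b-5p had 14 and 5 counts in non-VSD replicates 5 and 6, and miR-299a-5p had 22 counts in the VSD group and 66 in the non-VSD group, and none of these was tested.

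Over all 243 tested microRNAs, 57.2% had negative and 42.8% had positive values, and 5.76% were lower and 4.94% higher at p below 0.05. All 4 tested red cell microRNAs (miR-144-3p, miR-144-5p, miR-451-5p and miR-486) had negative values that did not pass, with a median of -0.71, and all 6 tested white cell microRNAs had negative values, with a median of -0.54, miR-223-3p alone at p below 0.05. The value of miR-486, -0.042, turned positive in 5 of the alternatives tried and in 9 of 14 leave-one-out fits. Scaled by library total, the summed red cell level was 18210 to 129541 CPM in VSD libraries and 26360 to 85934 CPM in non-VSD libraries, and the summed white cell level was 3194 to 32919 CPM against 10988 to 30977 CPM. Both overlapped. Of 8 tested vascular and mesenchymal microRNAs 7 had negative values, with a median of -0.76 and miR-221-3p at p below 0.05. Their part in the lower levels of miR-181a-5p, miR-223-3p and miR-423-3p was not tested.
Of 12 tested epithelial microRNAs, 7 had positive and 5 had negative values, with a median of 0.30, and miR-182 and miR-183-5p were at p below 0.05, beside 42.8% positive and 4.94% higher at p below 0.05 over all tested. Scaled by library total, their sum was 70076 to 199967 CPM in VSD libraries with a median of 147766, and 68936 to 148327 CPM in non-VSD libraries with a median of 95495. The 5 negative members were miR-200b-3p (-0.35, SE 0.31), miR-429 (-0.26, SE 0.26), miR-200c-3p (-0.21, SE 0.44), miR-375-3p (-0.11, SE 0.42) and miR-200a-3p (-0.03, SE 0.27). The abundant skin microRNAs miR-203a-3p and miR-205 had 0.46 (SE 0.32) and 0.46 (SE 0.37). Both were abundant, with means of 47117 and 41659 CPM in the VSD group.
All 5 tested Hox cluster microRNAs had positive values, with a median of 0.61 and miR-196a-5p at p below 0.05, against the same 42.8% and 4.94%, although miR-10a-5p was at 0.046 (SE 0.29). The tested members of the other lists had medians of 0.36 for let-7 (10 members), 0.27 for liver and gut (4), 0.24 for ciliated cells (5), -0.09 for miR-17-92 and its paralogs (14), -0.32 for the embryonic cluster of miR-290 and its neighbours (2) and -0.54 for neural microRNAs (4).

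**Figure D4:**
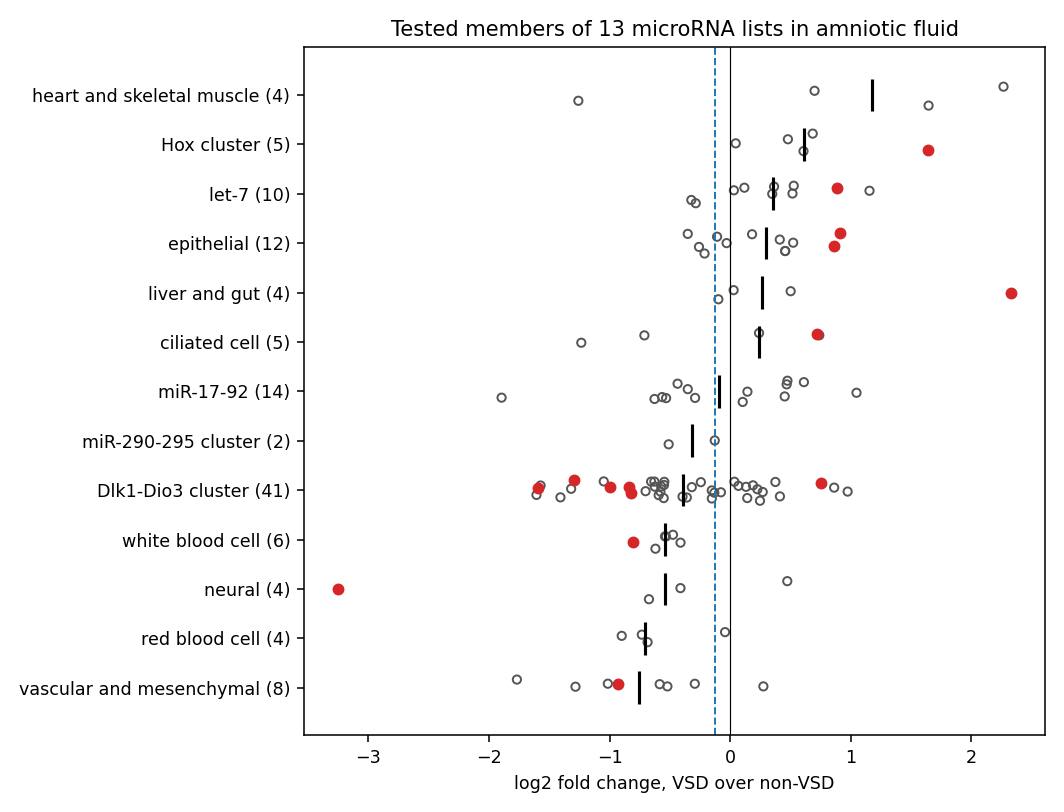
Log2 fold change in amniotic fluid, VSD over non-VSD (horizontal axis), of the tested members of 13 microRNA lists (number of members in brackets). Filled red points are at p below 0.05, black bars are list medians and the dashed blue line is the median of all 243 tested microRNAs at -0.13, with the blood, vascular and Dlk1-Dio3 medians to its left and the Hox, let-7 and epithelial medians to its right.

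The same contrast was made in the myocardium of exposed fetuses, 7 VSD against 7 non-VSD libraries that were made from wax-embedded tissue with another library kit and sequencer. There, 36 of 474 tested microRNAs, 7.59%, were DE-microRNAs, with 4.85% of those tested on the higher side and 2.74% on the lower. At an adjusted p below 0.05 there were none in edgeR (lowest 0.187), and 85, or 17.9%, had an unadjusted p below 0.05. Of the 44 named microRNAs 40 were tested in both materials, and 16 of the 40 had the same sign. Over all 234 microRNAs tested in both, 117 had the same sign, which is 50%.
Of the cluster of miR-183, miR-96 and miR-182, miR-182 and miR-183-5p had the same direction in both materials. MiR-96-5p was not among the named microRNAs and was not compared. MiR-182 and miR-183-5p were also DE-microRNAs in the myocardium, at 1.29 (SE 0.52) and 1.24 (SE 0.54) on the log2 scale, and the difference between the materials had a permutation p of 0.576 and 0.767. MiR-203a-3p (1.46) and miR-10a-5p (1.07) were higher and miR-292-5p (-1.32) lower in VSD myocardium, beside 0.46, 0.046 and -0.13 in amniotic fluid.
The difference between the 2 changes was tested by permuting group labels within each material 100000 times, two-sided, with adjustment over the 234. It passed for 3 of the 40 named microRNAs, against 4 of all 234. At an unadjusted p below 0.05 there were 13 of the 40, against 29 of 234 (12.4%). The named ones had been picked mostly by their p in amniotic fluid, which favours such differences. For miR-30e-3p the change was 2.66 in amniotic fluid and -0.54 in myocardium on the mean log2 CPM scale, a difference of 3.19 (permutation p = 0.00016, adjusted p = 0.0242). For miR-30a-3p it was 0.95 and -0.32 (difference 1.27, permutation p = 6e-04, adjusted p = 0.0351). For miR-181a-5p it was -0.82 and 0.31 (difference -1.13, permutation p = 0.00031, adjusted p = 0.0242).
MiR-369-3p, at -1.44 in amniotic fluid and 0.53 in myocardium, had a permutation p of 0.0054 and an adjusted p of 0.183. MiR-1-3p was at 1.64 (SE 1.17) in amniotic fluid and -0.81 (SE 0.40) in myocardium by edgeR, and the permutation p of the difference was 0.255.

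**Figure D5:**
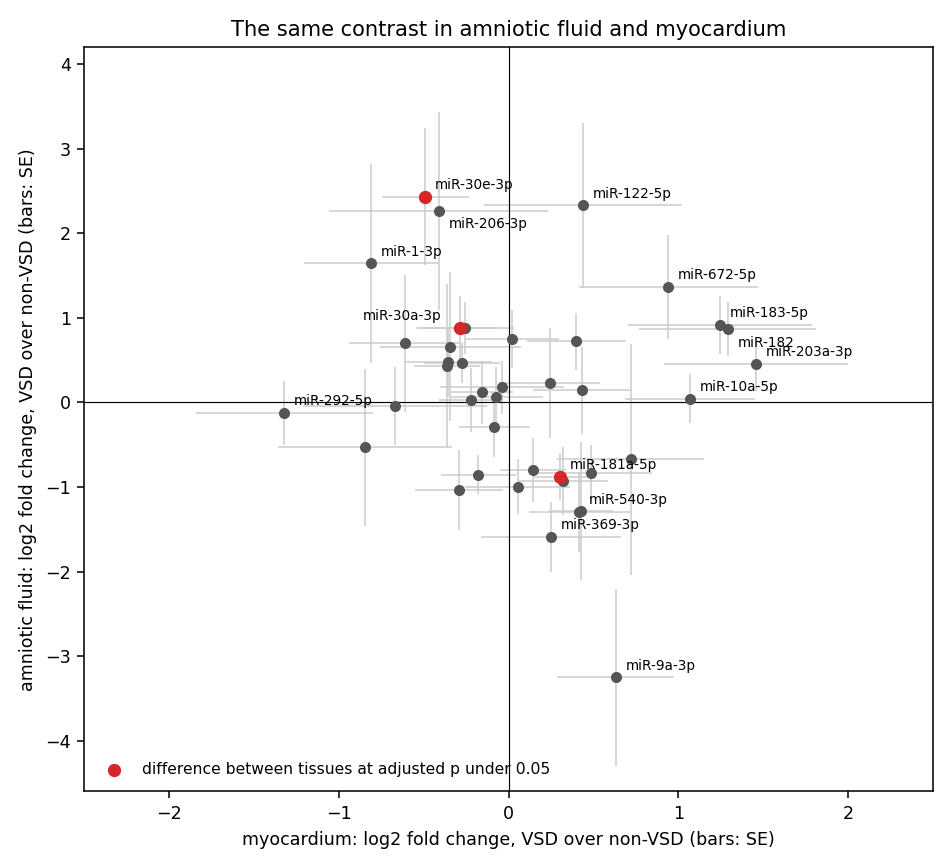
Log2 fold change, VSD over non-VSD, in myocardium (horizontal axis) and amniotic fluid (vertical axis) of the 40 named microRNAs tested in both, with SE bars. Red points are the 3 whose change differed between the materials at an adjusted p below 0.05, and miR-182 and miR-183-5p sit at the upper right, higher in the VSD group in both.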

How the data were processed

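Small RNA of amniotic fluid supernatant was extracted (HiPure Universal RNA Mini Kit), prepared with the QIAseq miRNA Library Kit and sequenced on an Illumina NovaSeq by the authors. The authors deposited raw counts per mature microRNA for each library; base calling was done with bcl2fastq 2.19 and DESeq is named in their processing notes, while the aligner, the microRNA annotation and whether QIAseq molecular identifiers were collapsed are not given in the sources used here. The deposited tables also hold CPM columns and group mean CPM made by the authors, authors' normalised read signal for myocardium, and the authors' fold change (ratio), log2 fold change and p-value columns; none of these was used. The unused CPM and signal columns numbered 56. Maternal serum was not analysed here.

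The VSD table (493 microRNAs) and the non-VSD table (507) were joined by microRNA name, 477 in both, with 0 where a table lacked one. Tests used edgeR 4.0.16 (filterByExpr with a minimum count of 10, TMM, glmQLFit, glmQLFTest) in R 4.3.3; 99.52% of counts were tested. Alternatives were DESeq2 1.42.0, limma 3.58.1, library-size scaling, other filters, all 3 groups in 1 fit, a replicate block, and leaving out each library in turn. The edgeR fit was tested on simulated data. The adjustment of the difference between materials was made over all 234 microRNAs rather than over the named ones as planned. The floor of 3 counts covers counting error only, while SE and SD include the spread between libraries.

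The named microRNAs were all DE-microRNAs, the 10 of lowest p in each direction, the other arm of a DE-microRNA's hairpin, those the study names for amniotic fluid, and representatives of the lists fixed at the design stage. MiR-181b-5p, miR-181c-5p, miR-181d-5p, miR-27b-3p, miR-503-3p, miR-378a-3p and miR-409a-3p, the other members of the 196 and let-7 families and list members shown with values were added after their values were seen, as was the comparison of NC position. The comparison and the microRNA lists were chosen with earlier results of these data known.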

Additional observations from a re-analysis of the deposited data

Results flagged for a closer look

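Libraries far from their group were looked for in 92 groups of 7 amniotic fluid libraries, mostly a named microRNA in the VSD or non-VSD group. The gap of the highest or lowest library to its neighbour was set against the range of the group, in log2 CPM for microRNAs. Dixon's 95% critical value was the limit. A gap this large is met by chance in about 1 in 20 groups, and 6 of 92 exceeded it. In the VSD group these were miR-9a-3p (0.593) and miR-15b-5p (0.606), both with no count in VSD replicate 2, miR-199a-5p (0.747), with no count in VSD replicate 7, and miR-292-5p (0.592), high in VSD replicate 2. In the non-VSD group they were miR-206-3p (0.684) and miR-199a-5p (0.643), both low in non-VSD replicate 7. VSD replicate 2 and non-VSD replicate 7 were the libraries with the fewest microRNAs.

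The change from non-VSD to VSD differed between amniotic fluid and myocardium at an adjusted p below 0.05 for 3 named microRNAs. By the permutation test these were miR-30e-3p (3.19 on the log2 scale), miR-30a-3p (1.27) and miR-181a-5p (-1.13). Library kit, sequencer and tissue preservation also differed between the materials, and their part was not tested.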

How the results depend on the processing

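The number of DE-microRNAs was 85 without a count filter (43 higher, 42 lower), 5 with at least 10 counts in every library, 4 at p below 0.01 and 14 without the libraries with the fewest microRNAs, an alternative chosen after seeing the data. Leaving out 1 library gave 7 (without VSD replicate 4, or non-VSD replicate 5) to 16 (without VSD replicate 2), with 14 without VSD replicate 6 and 15 without non-VSD replicate 1. Library-size scaling moved the split from 4 higher and 5 lower to 3 and 7, and limma gave 13 DE-microRNAs. Calls at an adjusted p below 0.05 numbered 4 with DESeq2 (miR-196a-5p, miR-30e-3p, miR-369-3p and miR-9a-3p, each at 0.0318) and 0 in each leave-one-out fit. In myocardium leaving out 1 library gave 24 to 48 DE-microRNAs, and library-size scaling moved the split from 23 higher and 13 lower to 35 and 7. The number of named microRNAs whose change differed between the materials at an unadjusted p below 0.05 was 12 rather than 13 with library-size scaling.

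Same-numbered VSD and non-VSD libraries did not deviate together in amniotic fluid. Their correlations ran from -0.32 to 0.03, with 0 of 7 best with their own number. The numbers were not used as pairs in the main fit, and whether such libraries shared a dam is not given. A fit with the replicate block called 6 DE-microRNAs and 0 at an adjusted p below 0.05. In myocardium the correlations ran from -0.40 to 0.38, with 5 of 7 over 0.1 and 0 of 7 best with their own number. There the block gave 27 DE-microRNAs.

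Direction turned for 4 microRNAs near 0 or set by few libraries. MiR-9a-5p was at 2.403 with the block and 0.96 with limma. MiR-665 was at -0.11 with the block, -0.12 with limma and -0.28 without the libraries with the fewest microRNAs. MiR-486 was at 0.072 without a filter, 0.058 with at least 10 counts in every library, 0.053 with all 3 groups, 0.067 with DESeq2 and 0.14 without those libraries. MiR-192-5p was at -0.12 with the block, -0.13 with limma and -0.079 without them. Leave-one-out ranges crossed 0 for miR-369-5p (-0.059 to 0.27), miR-9a-5p (-1.09 to 0.42), miR-1-3p (-0.16 to 2.07), miR-1b (-0.13 to 1.04), miR-665 (-0.12 to 0.45), miR-486 (-0.38 to 0.22), miR-192-5p (-0.18 to 0.27), miR-10a-5p (-0.039 to 0.23), miR-292-5p (-0.40 to 0.086) and let-7i-5p (-0.044 to 0.35). Apart from leave-one-out fits, 362 single values held their direction and their side of the threshold, 14 lost the call (miR-351-3p in 6, miR-9a-3p, miR-122-5p and miR-672-5p in 2 each, miR-540-3p and miR-3557-5p in 1 each), 10 gained it, 13 turned and 3 moved by more than the spread. The causes were not tested. Depth limits the low microRNAs: at 78188 counts a single read is worth more than 10 CPM.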
